A study of Mus musculus with 4 samples.

Results

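Lum-positive mesenchyme was examined in inner ear organoids, and the members were 2337 of the 15416 cells kept from 4 single-cell libraries. Members were chosen by measured values: a cell was taken when Col1a1 and Col3a1, the genes of the main fibrillar collagen chains, each reached 1000 CPM (UMIs scaled to a total of 1000000) in that cell, when Ccer2 stayed below 10000 CPM, and when the cell held at least 2 UMIs (unique molecular identifiers, each 1 counted RNA molecule) of Lum. These 4 measured values chose the cells, so their levels are given as a description. There were 691 members at day 16 and 1548 at day 20, and the day 21 libraries held 31 (GFP high) and 67 (GFP low).

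All 4 libraries came from organoids of the same mouse embryonic stem cell line, Atoh1-nGFP, which carries a nuclear GFP reporter of Atoh1, a transcription factor of hair cells. The days are days in vitro, and the 2 libraries of day 21 were split by GFP level. The protocol sorts on GFP and does not say which fraction was loaded at day 16 and day 20. Each group held 1 library, so a difference between libraries has no replicate check, no p-value was computed, and the 95% intervals cover counting error only.

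Lum encodes lumican, a small leucine-rich proteoglycan that binds collagen fibrils and helps set their diameter and spacing. Its relatives decorin (Dcn), biglycan (Bgn), keratocan (Kera), osteoglycin (Ogn) and asporin (Aspn) share the leucine-rich repeat fold and are products of fibroblasts in cornea, skin, tendon and other connective tissue. In the embryonic ear, periotic mesenchyme surrounds the otic epithelium, exchanges signals with it and later forms fibrocytes and the capsule of the inner ear.

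The gate on both collagens held 824, 1889, 51 and 95 cells at day 16, day 20, GFP high and GFP low, and the Lum-negative remainder of each gate numbered 133, 341, 20 and 28 cells. Members made up 83.9% of the gate at day 16 (95% Clopper-Pearson interval 81.2 to 86.3), 81.9% at day 20 (80.1 to 83.7), 60.8% for GFP high (46.1 to 74.2) and 70.5% for GFP low (60.3 to 79.4). With every cell thinned to 3000 UMIs before the gate, the shares were 67.9%, 68.5%, 31.9% and 32.0%. Both day 21 libraries were then below day 16 and day 20 with intervals that did not overlap, while day 16 and day 20 differed by less than their intervals. Of all kept cells, members made up 19.8% at day 16 and 34.0% at day 20, against 0.875% (GFP high) and 1.75% (GFP low) at day 21. The sort on GFP can set those shares.

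**Figure D1:**
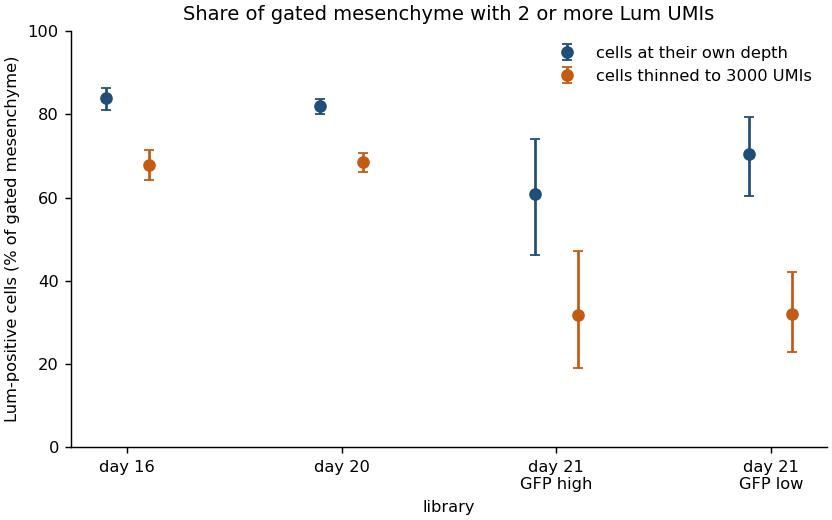
Share of gated mesenchyme with at least 2 Lum UMIs (y axis, percent) in each library (x axis), with cells at their own depth in blue and thinned to 3000 UMIs in orange; bars are 95% Clopper-Pearson intervals. The day 21 shares fall from 60.8% and 70.5% to 31.9% and 32.0% on thinning, below the 67.9% and 68.5% of day 16 and day 20.

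Median depth of the members was 12704 UMIs at day 16 and 9037.5 at day 20, with 23334 in GFP high and 21675 in GFP low, against 9188, 5995, 22578 and 17285 in the Lum-negative cells. The median mitochondrial share of the members was 2.07%, 0.575%, 1.43% and 1.04%. No member barcode was shared between libraries. Just below the threshold, 53, 141, 2 and 5 gated cells had 1 Lum UMI, and just inside it 48, 115, 2 and 8 had 2. The highest Scrublet scores, taken at an assumed doublet rate of 0.8% per 1000 cells, marked 98, 166, 100 and 117 barcodes, of which 16, 41, 2 and 0 were members. Scrublet's automatic threshold called 1, 78, 3 and 4 barcodes in the whole libraries. Neuron-gated cells, which should lack Lum, held at least 2 Lum UMIs in 3.29%, 2.01%, 0% and 0.109% of cells, at median depths of 17353, 12264, 21853 and 23461.5 UMIs. The 0% stands for none of 198 cells, with an upper Clopper-Pearson limit of 1.85%.

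Markers given for these cells were Col1a1, Col3a1, Lum, Dcn, Dlk1 and Igfbp7. Col1a1, Col3a1 and Lum chose the cells and had to be present. Dcn, Dlk1 and Igfbp7 were above 20 CPM in the members of every library. Dcn, which was not used to choose the cells, was at 2783 CPM at day 16 and 3954 at day 20, with 2707 in GFP high and 2675 in GFP low. In Lum-negative cells Dcn was at 725, 1537, 824 and 1276 CPM, below the members of the same library in each case. Lum itself was at 1425, 2120, 545 and 762 CPM in the members, and the members of both day 21 libraries were lower than those of day 16 and day 20. Dlk1, an imprinted membrane protein of the Notch ligand family, was at 1737, 3381, 959 and 1255 CPM. Igfbp7, a secreted insulin-like growth factor binding protein, was at 211, 949, 404 and 324 CPM. Both peaked at day 20, and Igfbp7 was lowest at day 16.

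At 3000 UMIs a cell, which left out 97 and 165 shallower members at day 16 and day 20, Dcn was found in 91.2% (88.7 to 93.4) and 98.2% (97.3 to 98.8) of members. Igfbp7 was found in 34.7% (30.9 to 38.7) at day 16 and 78.6% (76.3 to 80.7) at day 20, and without thinning in 53.1% and 90.5%. Dlk1 was found in 56.2% and 76.0% of thinned members and in 65.4% and 81.8% without thinning. Neuron-gated cells at the same depth gave 0.565% and 1.88% for Igfbp7 and 6.78% and 7.53% for Dlk1, far under the members. Lum-negative cells of the collagen gate gave 11.4% (5.59 to 19.9) and 57.7% (51.2 to 63.9) for Igfbp7. For Dlk1 they gave 27.3% (18.3 to 37.8) and 70.2% (64.0 to 75.8). Both genes were thus found more often at day 20 in both classes of the gate.

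**Figure D2:**
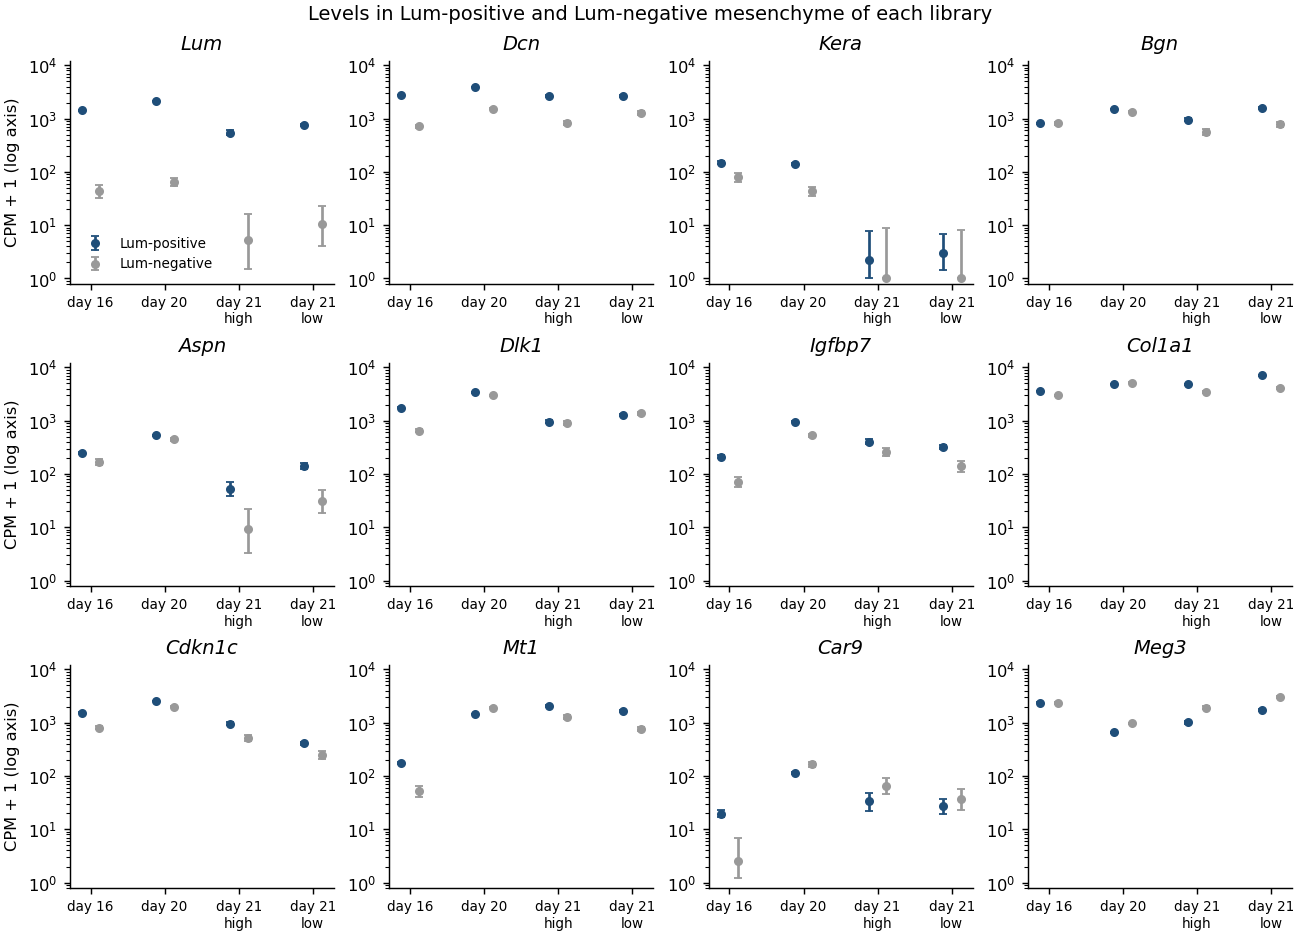
CPM plus 1 (log axis) of 12 genes in Lum-positive cells (blue) and Lum-negative cells (grey) of the gate, summed over the cells of each library, with exact Poisson 95% intervals. Lum separates the classes by construction; Dcn is higher in the blue points of every library, and Kera lies near 100 CPM at day 16 and day 20 and under 5 CPM in both day 21 libraries.

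Markers of other cell types differed between the libraries' members. Blood markers summed to 2.79, 2.78, 6.03 and 4.01 CPM over 8 genes, 6, 6, 7 and 7 of which had no UMI. Endothelial markers summed to 15.7, 14.7, 57.8 and 32.8 CPM, and all 29 Hox genes stayed under 20 CPM. Osteoblast genes summed to 86.1, 70.6, 670 and 210 CPM over 10 genes, of which 2 reached 20 CPM in GFP high. Cartilage genes summed to 112, 110, 131 and 186 CPM. Glia and neural crest markers summed to 11.3, 23.3, 41.0 and 40.1 CPM, and epidermis markers to 50.7, 71.1, 10.8 and 26.7 CPM. Neuron markers summed to 401 CPM at day 16 and 186 at day 20, with 128 in GFP high and 100.3 in GFP low over 10 genes. Hair cell markers summed to 343, 269, 912 and 174 CPM over 10 genes, of which 9 reached 20 CPM in GFP high. Supporting cell and otic epithelium markers summed to 124, 141, 364 and 388 CPM over 10 genes, and Merkel-like cell markers to 206, 148, 795 and 52.2 CPM over 6. The hair cell and Merkel-like sums were highest in GFP high and lowest in GFP low. In the 31 members of GFP high, Pou4f3, a hair cell transcription factor, was at 135 CPM and Ccer2 at 675 CPM, against 4.68 and 10.7 CPM in GFP low. The part of doublets and free RNA in those values was not tested.

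Day 20 and day 16 were compared within the members on 9004 genes that reached 10 CPM in either library and 30 UMIs over both. Calls followed a rule of size: a CPM ratio of 2 or more in either direction, with an exact interval that left out 1. By this rule 329 genes (3.65%) were higher at day 20 and 754 (8.37%) were lower, with a median log2 ratio of -0.19. The counts of each gene list for these days are to be read beside these shares. Whether a list departs from them was not tested. Trimmed-mean (TMM) scaling moved the median to 0.11 and the counts to 637 higher and 344 lower, so the share of higher calls was 64.9% in place of 30.4%. No called gene named here changed direction under that scaling. In cells thinned to 3000 UMIs, 426 genes were higher and 1287 lower, and 257 and 550 of them were shared with the calls at full depth.

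**Figure D3:**
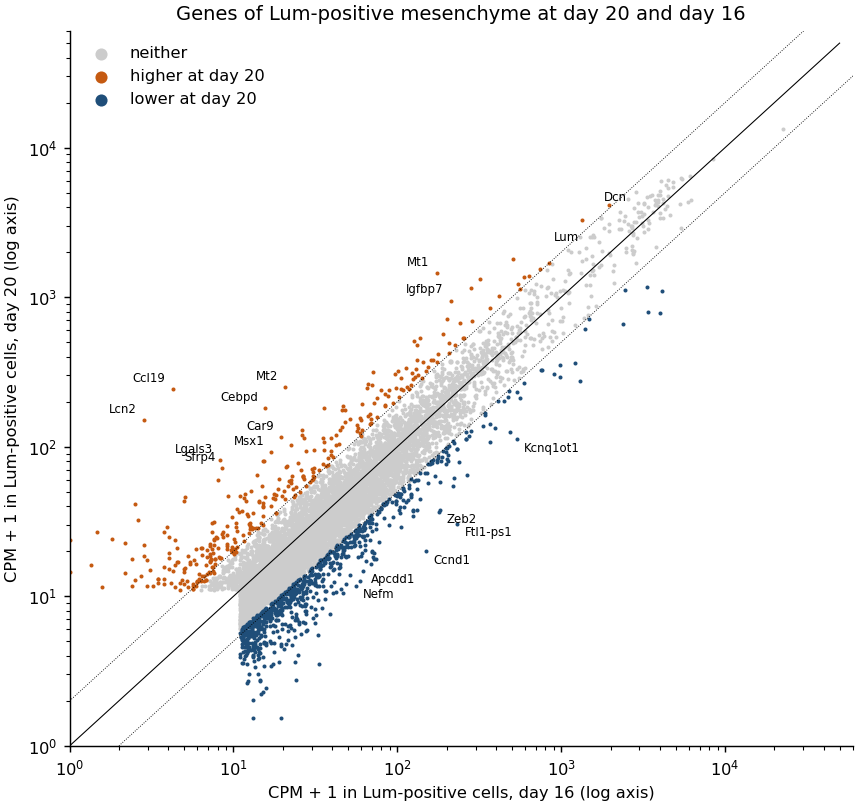
CPM plus 1 of 9004 genes in Lum-positive cells at day 20 (y, log axis) against day 16 (x, log axis), coloured by call, with the line of equality and dotted lines at a ratio of 2. Mt1, Mt2, Cebpd, Car9 and Msx1 lie above the upper dotted line, and Ccnd1, Zeb2 and Kcnq1ot1 lie below the lower one.

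Small leucine-rich proteoglycans were the family of Lum itself, and 2 of their 7 tested genes were higher at day 20 and 0 lower, with a median log2 ratio of 0.68 beside -0.19 over all genes. Ogn was at 58.6 CPM at day 16 and 149 at day 20, with 32.5 in GFP high and 56.8 in GFP low, a day 20 over day 16 ratio of 2.54 (2.31 to 2.81). Aspn, a collagen-binding inhibitor of TGF-beta, was at 249, 529, 51.8 and 138 CPM, with a ratio of 2.13 (2.03 to 2.23). The Aspn call was lost at 1.77 in thinned cells, at 1.83 with a collagen gate of 2000 CPM and at 1.86 as a mean of per-cell CPM. Bgn was at 816, 1518, 948 and 1565 CPM, and its ratio of 1.86 passed the size rule only with TMM scaling, at 2.31, and with a collagen gate of 500 CPM, at 2.05.

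Kera, known from corneal keratocytes, had a pattern of its own. It was at 148 CPM at day 16 and 141 at day 20, a ratio of 0.954 (0.889 to 1.02) that became 1.18 with TMM scaling. Its level was 1.21 in GFP high and 2.01 in GFP low, from 3.23% and 4.48% of the members. At 3000 UMIs it was detected in 20.0% (16.9 to 23.5) of members at day 16, 17.6% (15.7 to 19.8) at day 20 and 0% in both day 21 libraries, where none of 31 and none of 67 cells allow shares of up to 11.2% and 5.36%. Without thinning the shares were 30.2% and 26.2% at day 16 and day 20. Dcn, Lum and Kera are neighbours on chromosome 10 of GRCm38 (GENCODE M21), with Dcn at chr10:97479609-97518143, Lum at chr10:97565128-97572703 and Kera at chr10:97606879-97613692, all on the plus strand. Epyc, the next gene at chr10:97644068-97682454, was at 0.582, 1.09, 2.41 and 0.669 CPM in the members. Aspn, Omd and Ogn form a second group at chr13:49544443-49567565, chr13:49582462-49592822 and chr13:49608046-49624501.

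With the main settings, none of 6 tested fibrillar collagen genes and none of 7 fibril-associated ones passed the size rule. Over all tested genes 3.65% were higher and 8.37% lower, and at those shares lists this short can hold no call. The fibrillar collagen gene Col11a1 was called lower at day 20 in some alternatives. Its ratio was 0.264 in thinned cells, 0.414 with a collagen gate of 2000 CPM and 0.401 when per-cell CPM values were averaged. It was 0.484 without the highest Scrublet scores and 0.474 without cycling cells. Col1a1, which chose the cells, was at 3568, 4826, 4788 and 7071 CPM in the 4 libraries, and Col3a1 at 3375, 3985, 3072 and 5496 CPM. Col1a2, the partner chain of Col1a1 and not part of the gate, was at 4816, 5892, 3947 and 7218 CPM. All 3 were highest in GFP low. Among 16 tested genes of collagen modification, 2 were higher and 0 lower, and a difference from the shares of all genes was not tested. P4ha2, a prolyl hydroxylase subunit for collagen, went from 105 to 285 CPM (ratio 2.73, 2.54 to 2.93). Pcolce, an enhancer of procollagen C-peptide removal, went from 123 to 282 CPM (ratio 2.29, 2.14 to 2.45). Of 12 basement membrane genes, Col15a1 and Col18a1 were higher and Col4a5 lower. Col15a1 was at 9.54 and 26.5 CPM, and its ratio of 2.78 was 1.62 in thinned cells and no longer called. Col18a1, at 8.14 and 20.6 CPM, had a ratio of 2.52, which was 1.94 and not called as a mean of per-cell CPM. None of 12 elastic fibre and microfibril genes passed (3 were higher with TMM scaling), among them Mfap2 at 1140 and 2009 CPM. Mfap4 was also called higher with a collagen gate of 500 CPM, at 2.16, and in cells of 5000 UMIs or more, at 2.03. Fbn2 was called lower at 0.414 in thinned cells and 0.477 with the 2000 CPM gate. Its ratio was 0.479 when per-cell CPM values were averaged and 0.492 without cycling cells, both called lower.

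The IGF and imprinted growth genes split in direction, with 2 of 17 tested genes higher at day 20 and 3 lower. Igf2, a fetal growth factor, was at 367 CPM at day 16 and 842 at day 20, with 419 in GFP high and 717 in GFP low, a ratio of 2.29 (2.21 to 2.39). Igfbp7 had a ratio of 4.49 (4.28 to 4.72). The imprinted noncoding RNA Meg3 was at 2375, 662, 1026 and 1725 CPM, a ratio of 0.279 (0.272 to 0.285), and the imprinted zinc finger gene Peg3 was at 1207, 362, 229 and 577 CPM, a ratio of 0.300 (0.290 to 0.310). H19, the noncoding neighbour of Igf2, was the other lower gene, at 1470, 716, 2285 and 1796 CPM. Meg3 and Dlk1 lie in the same imprinted domain, at chr12:109541001-109571726 and chr12:109452823-109463336 (GRCm38), and their ratios pointed in opposite directions, 0.279 and 1.95. Igfbp5 was at 370 and 191 CPM at day 16 and day 20 and at 2072 and 2189 CPM in GFP high and GFP low, so both day 21 libraries were above the others.

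Transcription factors of embryonic and periotic mesenchyme were more often lower than higher at day 20. Of 27 tested, 8 were lower (among them Twist2, Tbx18, Pou3f4, Foxc1, Zfhx4, Foxp2 and Zeb2) and 2 higher (Msx1 and Foxf1), with a median log2 ratio of -0.75. Zeb2, a repressor linked to epithelial-mesenchymal transition, was at 180 CPM at day 16 and 36.6 at day 20, with 67.5 in GFP high and 106 in GFP low, a ratio of 0.203 (0.184 to 0.224). Foxp2 was at 38.0, 6.58, 30.1 and 44.1 CPM, a ratio of 0.173 (0.136 to 0.218). Pou3f4, a periotic mesenchyme factor whose loss causes deafness, was at 13.7, 1.22, 1.21 and 0.669 CPM. For Zeb2 and Foxp2 the lowest library was day 20. Msx1, a homeobox gene of craniofacial mesenchyme, went the other way, at 16.1, 91.5, 2.41 and 15.4 CPM, a ratio of 5.70 (4.78 to 6.84), and 11.1 in thinned cells. With TMM scaling 5 of the 27 were lower and 2 higher.

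Wnt signals maintain progenitors in many embryonic tissues. Of 14 tested Wnt pathway genes, 5 were lower at day 20 (Wnt5a, Rspo1, Rspo3, Axin2 and Lef1) and 1 higher (Sfrp4), with a median log2 ratio of -0.57, and 2 were lower and 2 higher with TMM scaling. Lef1, a transcriptional partner of beta-catenin, was at 20.0, 3.80, 56.6 and 39.5 CPM, a ratio of 0.190 (0.138 to 0.258). Rspo1, a secreted enhancer of Wnt signalling, was at 50.3, 13.0, 48.2 and 19.4 CPM, a ratio of 0.258 (0.216 to 0.306). Axin2, a feedback target of the pathway, had a ratio of 0.425, which was 0.527 and not called with TMM scaling and 0.534 in thinned cells. Sfrp4, a secreted Wnt antagonist, was at 7.56, 70.8, 20.5 and 33.4 CPM, a ratio of 9.36 (7.28 to 12.2), and 16.2 in thinned cells.

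In the BMP and TGF-beta pathway, 5 of 20 tested genes were higher (Bmp6, Chrdl1, Bambi, Tgfb1 and Tgfb3) and 4 lower (Bmp7, Id1, Tgfb2 and Inhba). The ligand Tgfb1 was at 3.37, 22.7, 22.9 and 30.1 CPM, a ratio of 6.72 (4.59 to 10.2), and Id1, a target of BMP signalling, was at 33.7, 7.39, 15.7 and 53.5 CPM, a ratio of 0.219 (0.174 to 0.274), and 0.0957 in thinned cells. Of 12 FGF and hedgehog genes, Fgf7 and Hhip were higher and Fgf18 and Gli3 lower. The Fgf7 call was lost in 3 alternatives, at 1.90 to 1.98, and that of Fgf18 with TMM scaling, at 0.555. Hhip, which binds hedgehog ligands and limits their signal, was at 34.4, 106, 1.21 and 11.4 CPM, and Gli3, a transcription factor of the same pathway, was at 22.5, 4.95, 16.9 and 13.4 CPM. Of 10 retinoid genes, Aldh1a3 and Rbp4 were higher and Cyp26b1 lower. The Aldh1a3 call was lost in 3 alternatives, at 1.46 to 1.82, and the ratio of Rbp4, 3.34, rose to 6.34 with a collagen gate of 2000 CPM and 9.07 in cells with no UMI of 8 cell cycle genes. Cyp26b1, which degrades retinoic acid, was at 71.3, 18.6, 157 and 171 CPM, a ratio of 0.261 (0.225 to 0.301), and 0.121 in thinned cells.

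Ccnd1, the gene of cyclin D1, had the lowest ratio among called genes at 50 CPM or more, next to the pseudogene Ftl1-ps1. It was at 148 CPM at day 16 and 18.9 at day 20, with 20.5 in GFP high and 44.1 in GFP low, a ratio of 0.128 (0.112 to 0.146). Genes of DNA replication and mitosis did not move as a group. Of 19 tested cell cycle genes, Ccnb2, Ccna2 and Plk1 were higher and Mcm2 and Mcm6 lower (4 and 0 with TMM scaling). The Ccnb2 call was lost at 1.95 and 1.84 with collagen gates of 500 and 2000 CPM, and at 1.67 with CPM averaged over cells. Mki67 was called lower at 0.474 and 0.473 with those gates, 0.336 in thinned cells and 0.359 averaged over cells. Ube2c was called higher at 2.05 with Lum at 200 CPM, 2.07 without the highest Scrublet scores and 2.44 with TMM scaling. Mcm6 was not called with TMM scaling, at 0.502. At 3000 UMIs, Mki67 or Top2a was found in 6.06% (4.28 to 8.29) of members at day 16 and 4.34% (3.33 to 5.55) at day 20, intervals that overlap. Without thinning the shares were 10.9% and 6.14%. Ftl1-ps1 was at 231 and 29.5 CPM, a ratio of 0.128, and its reads may be shared with the parent gene. The next genes by ratio, beside Zeb2, were Nefm, Adgrl3, Kcnq1ot1, Apcdd1, Thsd7a, Nr2f2 and Pcdh9, from 0.196 to 0.238. Nefm is a neuronal gene, and 66.6% of its day 16 UMIs were in 10 members. Of 10 neuron markers 8 were lower at day 20 and 0 higher (6 lower with TMM scaling), and cells that the neuron gate held were 1125 at day 16 and 598 at day 20. Their part in the lower genes was not tested. In members under 1000 CPM of neuron, hair cell and Ccer2 genes, 683 of 8815 tested genes (7.75%) were lower. Of these, 629 were shared with the 754 lower genes of all members.

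The metallothioneins Mt1 and Mt2, small cysteine-rich proteins that bind zinc and copper, stood out among the genes higher at day 20. Mt1 was at 173 CPM at day 16 and 1451 at day 20, with 2072 in GFP high and 1656 in GFP low. Mt2 was at 19.7, 250, 1130 and 535 CPM. Day 16 was the lowest library for both. The day 20 over day 16 ratios were 8.39 (7.96 to 8.85) for Mt1 and 12.7 (10.9 to 14.9) for Mt2. Their ranges over the processing alternatives were 7.62 to 10.4 and 11.1 to 15.7. Mt1 was detected in 22.2% (18.9 to 25.8) of thinned members at day 16 and 58.6% (55.9 to 61.2) at day 20, and without thinning in 39.8% and 70.2%. Neuron-gated cells gave 11.8% and 13.9% at that depth, a smaller gap between the days. Lum-negative cells of the collagen gate gave 14.8% (8.11 to 23.9) and 62.5% (56.2 to 68.5). In those cells Mt1 was at 51.0 and 1914 CPM and Mt2 at 12.8 and 383 CPM. The higher level at day 20 was therefore not particular to the members.

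Genes of glycolysis and of the response to low oxygen were higher in part, with 4 of 14 tested genes higher at day 20, 0 lower and a median log2 ratio of 0.84. With TMM scaling 9 of the 14 were higher. The list summed to 4380 CPM at day 16 and 7778 at day 20 in the members. In Lum-negative cells of the gate it summed to 5652 and 10402 CPM, so the rise of the list was not particular to the members. Bnip3, a mitophagy receptor induced by hypoxia, was at 136, 536, 525 and 363 CPM, a ratio of 3.94 (3.71 to 4.20). Ldha, a lactate dehydrogenase subunit, was at 745, 1553, 1287 and 1076 CPM, a ratio of 2.08 (2.03 to 2.14). Egln3, an oxygen-sensing prolyl hydroxylase, was at 50.6, 152, 175 and 135 CPM, and Adm, the gene of adrenomedullin, was at 4.07, 44.8, 242 and 113 CPM, with a ratio of 10.99 that was 18.1 in thinned cells. All 4 genes were lowest at day 16. Car9, a membrane carbonic anhydrase induced by hypoxia, was at 18.6, 114, 32.5 and 26.1 CPM, a ratio of 6.14 (5.22 to 7.27), and 3.83 in thinned cells.

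The 250 bases before the RefSeq start of Mt1, Mt2, Car9 and Bnip3 are printed because these 4 genes were higher together at day 20 and their families have known short response elements. Of 10 member genes looked up, 7 had an entry in the RefSeq table (GRCm38.p6), and Lum, Dcn and Col1a1 had none. Capitals mark TGCACNC or TGCGCNC, the core of metal response elements, in Mt1 and Mt2, and ACGTG or GCGTG, the core of hypoxia response elements, in Car9 and Bnip3. Both strands were searched, and a match on the other strand stands in its reverse complement. The Mt1 window is chr8:94178839-94179088 and the Mt2 window chr8:94172368-94172617, both on the plus strand. The Car9 window is chr4:43506776-43507025 on the plus strand and the Bnip3 window chr7:138909507-138909756 on the minus strand.
Mt1: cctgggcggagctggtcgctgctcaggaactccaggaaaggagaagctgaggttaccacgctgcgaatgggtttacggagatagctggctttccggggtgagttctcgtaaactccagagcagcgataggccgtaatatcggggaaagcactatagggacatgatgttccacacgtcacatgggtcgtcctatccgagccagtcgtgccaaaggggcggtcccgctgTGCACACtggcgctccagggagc
Mt2: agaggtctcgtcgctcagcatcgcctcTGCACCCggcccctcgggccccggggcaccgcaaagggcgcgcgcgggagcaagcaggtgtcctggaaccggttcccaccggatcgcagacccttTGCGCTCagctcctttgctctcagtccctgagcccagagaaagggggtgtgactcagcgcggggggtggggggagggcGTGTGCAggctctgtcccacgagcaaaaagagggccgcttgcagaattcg
Car9: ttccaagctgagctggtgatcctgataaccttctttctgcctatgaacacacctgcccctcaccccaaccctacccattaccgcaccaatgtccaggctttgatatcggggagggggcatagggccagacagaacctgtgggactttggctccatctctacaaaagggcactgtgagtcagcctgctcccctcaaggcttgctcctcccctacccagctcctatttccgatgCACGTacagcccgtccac
Bnip3: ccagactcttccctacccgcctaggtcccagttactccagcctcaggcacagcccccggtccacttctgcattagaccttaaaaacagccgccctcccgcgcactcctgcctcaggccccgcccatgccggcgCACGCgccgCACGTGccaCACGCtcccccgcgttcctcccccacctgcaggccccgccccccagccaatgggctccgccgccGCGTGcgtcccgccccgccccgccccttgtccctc

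The Mt1 window held 1 match to TGCACNC, from 23 to 17 bases before the start. The Mt2 window held 2 matches to TGCACNC and 1 to TGCGCNC. Of the 32851 RefSeq windows of the same length, 10.4% held the first and 12.5% the second metal motif, and 21.4% held either.

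Car9 held 1 match to ACGTG, from 18 to 14 bases before the start. Bnip3 held 2 overlapping matches to ACGTG on opposite strands and 3 to GCGTG. The first hypoxia motif was in 16.6% and the second in 28.2% of all windows, and either in 38.6%. A match describes letters in a window and shows no binding.

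Immediate-early and dissociation stress genes were also higher at day 20, 6 of 15 (Junb, Ier3, Dusp1, Hspa1a, Hspa1b and Dnajb1), with 1 lower (Fosb) and a median log2 ratio of 0.81. With TMM scaling 8 were higher and 0 lower. Junb, a subunit of AP-1, was at 1334, 3275, 2731 and 2341 CPM, a ratio of 2.45 (2.40 to 2.51), and Ier3 at 201, 715, 830 and 743 CPM, a ratio of 3.55 (3.38 to 3.74). The list summed to 13847 CPM at day 16 and 20784 at day 20. In Lum-negative cells of the gate it summed to 8285 and 17624 CPM, so the rise of the list was not particular to the members. Handling of the cells cannot be told apart from the day, since each day is 1 library.

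Among called genes that reached 50 CPM on at least 1 of these days, the highest ratios of day 20 over day 16 belonged to Lcn2 and a chemokine gene. Lcn2, an iron-trafficking lipocalin, was at 1.86 CPM at day 16 and 149 at day 20, with 509 in GFP high and 496 in GFP low, a day 20 over day 16 ratio of 80.2 (49.3 to 141). Its UMIs were uneven between cells: 5.04% of day 20 members held any and 10 members held 61.1% of them, and the ratio ran from 52.0 to 298 over the alternatives. Cebpd, a transcription factor of the acute phase response, was at 14.7, 180, 383 and 223 CPM, a ratio of 12.3 (10.3 to 14.8). Cxcl12, a stromal chemokine, was at 279, 1142, 348 and 613 CPM, a ratio of 4.10 (3.93 to 4.28). It was found in 40.1% (36.1 to 44.1) of thinned members at day 16 and 81.3% (79.1 to 83.3) at day 20, and without thinning in 58.3% and 88.8%. Thinned Lum-negative cells gave 23.9% (15.4 to 34.1) and 63.7% (57.4 to 69.7), so the higher share at day 20 was not particular to the members. A chemokine gene of the Ccl19 symbol (ENSMUSG00000071005) was at 3.26 and 243 CPM. That symbol is shared by more than 1 feature in the tables, so its value is uncertain. Lgals3, the gene of galectin-3, was at 7.33 and 80.7 CPM, a ratio of 11.004 (8.54 to 14.4). Ly6a, a surface antigen of stromal cells, had no UMI at day 16, which allows 0.349 CPM, and 22.9 CPM at day 20, at least 65.7-fold higher against that floor of 3 counts over the library's members.

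Contractile genes marked a minority of the members. Acta2, the gene of smooth muscle actin, was at 65.5 CPM at day 16 and 262 at day 20, with 43.4 in GFP high and 69.5 in GFP low, a ratio of 4.01 (3.67 to 4.38). It was found in 7.74% (5.73 to 10.2) of thinned members at day 16 and 14.9% (13.1 to 16.9) at day 20, and without thinning in 12.4% and 19.4%. Thinned Lum-negative cells gave 3.41% (0.709 to 9.64) and 9.68% (6.30 to 14.1), with overlapping intervals. Of 7 smooth muscle and pericyte genes tested, Acta2 and Tagln were higher and Des lower, the last not called with TMM scaling, at 0.508. The ratio of Tagln, 2.10, was not called in 4 alternatives, where it ran from 1.35 to 1.62. Tnmd, a tendon gene, was at 17.6, 51.1, 0 and 6.02 CPM, a ratio of 2.91 (2.44 to 3.49).

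**Figure D4:**
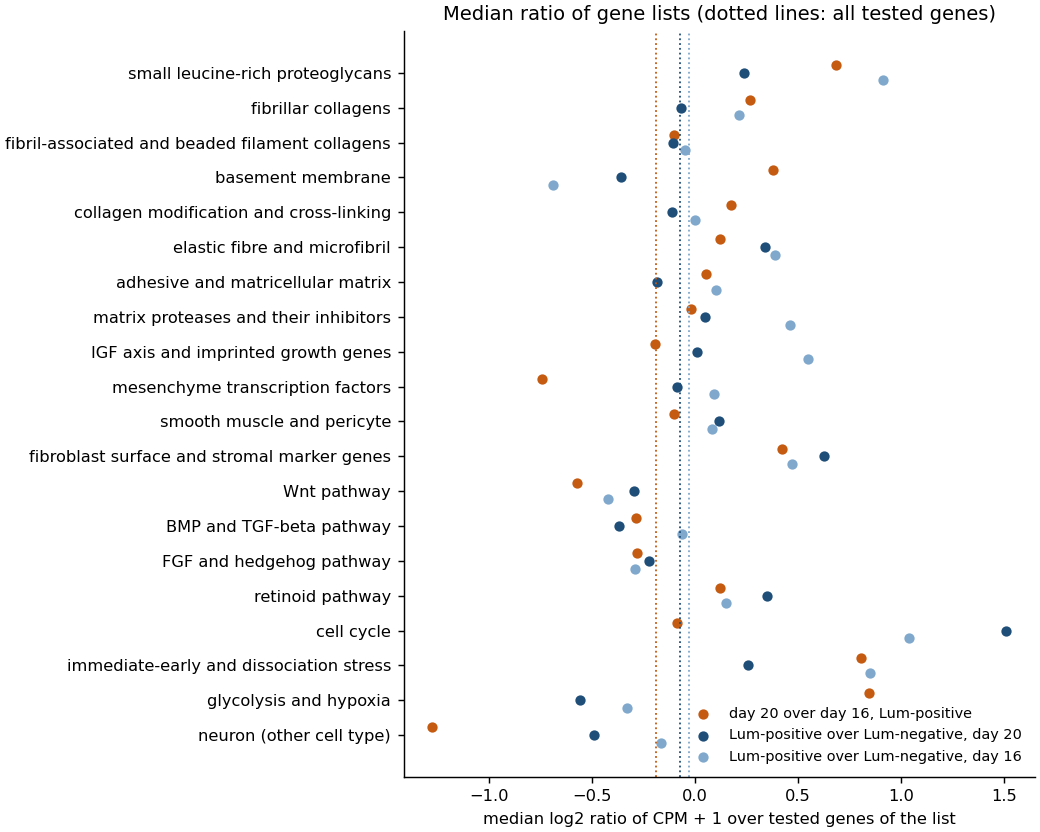
Median log2 ratio of CPM plus 1 over the tested genes of each list (x axis), for day 20 over day 16 within Lum-positive cells (orange) and for Lum-positive over Lum-negative cells at day 20 (dark blue) and day 16 (light blue); dotted lines give the medians of all tested genes. Glycolysis and hypoxia genes lie at 0.84 in orange and at -0.56 and -0.33 in blue, and cell cycle genes at -0.09 in orange and 1.51 and 1.04 in blue.

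Lum-positive cells were then set beside the Lum-negative cells of the same gate. Since Lum of these same cells chose the classes, these values are a description. At day 20, 173 of 8566 tested genes (2.02%) were higher in Lum-positive cells and 202 (2.36%) lower, with a median log2 ratio of -0.08. TMM scaling gave 270 higher and 112 lower and a median of 0.07, a share of higher calls of 70.7% in place of 46.1%. At day 16, 253 of 9296 genes (2.72%) were higher and 298 (3.21%) lower. Markers of other cell types also differed between the classes at day 16. All 5 tested epidermis genes were lower in Lum-positive cells, and 3 of 6 hair cell genes were higher and 0 lower. Epidermis markers summed to 50.7 CPM in Lum-positive and 121 in Lum-negative cells, and hair cell markers to 343 and 233 CPM. The part of other cells' RNA in the day 16 calls was not tested. Of 8214 genes tested in both libraries, 47 were higher in both, 35 lower in both, and 5 were called in opposite directions.

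Dcn was the marker beside Lum that was called in both libraries, with ratios of 2.57 (2.49 to 2.66) at day 20 and 3.84 (3.59 to 4.11) at day 16, the latter running from 2.20 to 6.38 over the alternatives. Kera was at 141 CPM in Lum-positive and 42.3 in Lum-negative cells at day 20, a ratio of 3.33 that ran from 2.25 to 7.77, and at 148 and 78.1 CPM at day 16, a ratio of 1.89 that ran from 0.916 to 5.13. Dlk1 and Igfbp7 were called at day 16 alone, with ratios of 2.66 and 3.01 against 1.13 and 1.80 at day 20, and Dlk1 fell under 2 in 4 of the day 16 alternatives (1.73 to 1.97). Whether the libraries differ was not tested. The small leucine-rich proteoglycan list had 3 higher genes of 7 in each library, among them Lum, whose call was set by the rule. The fibrillar collagens had none of 6. Both classes had to reach the same minimum of Col1a1 and Col3a1, which limits how far these collagens could differ.

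Fibroblast surface and stromal genes had 5 higher of 17 at day 20 (Cd34, Ly6a, Dpt, Gsn and Clec3b) and 3 of 16 at day 16 (Pi16, Cxcl12 and Clec3b), with 0 lower in each. The day 20 count ran from 2, with a collagen gate of 2000 CPM, to 8, in cells of 5000 UMIs or more. Clec3b, the gene of the plasminogen-binding protein tetranectin, was at 177 CPM in Lum-positive and 49.5 in Lum-negative cells at day 20, a ratio of 3.58 (2.95 to 4.37), and at 120 and 28.7 CPM at day 16, a ratio of 4.18 (3.002 to 6.01). Efemp1, an elastic fibre glycoprotein of the fibulin family, was at 103 and 35.1 CPM at day 20 and at 155 and 49.4 CPM at day 16, where its ratio of 3.14 was 1.92 and not called as a mean of per-cell CPM. The ratios of Cd34 (2.08) and Gsn (2.06) lay close to the threshold, and that of Cd34 fell under 2 in 5 alternatives.

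On the lower side, Inhba, the subunit of activin A, was at 8.89 CPM in Lum-positive and 41.8 in Lum-negative cells at day 20, a ratio of 0.212 (0.162 to 0.280), and at 22.5 and 239 CPM at day 16, a ratio of 0.094 (0.078 to 0.113), and 0.217 in thinned cells. Acan, the core protein gene of the cartilage proteoglycan aggrecan, was at 4.21 and 17.5 CPM at day 20 and 7.56 and 31.9 CPM at day 16. Plod2, a lysyl hydroxylase of collagen telopeptides, was at 58.5 and 153 CPM and at 47.0 and 131 CPM, and its day 16 ratio of 0.36 was 0.584 and not called in thinned cells. Tnc, the matrix glycoprotein tenascin-C, was at 17.2 and 60.7 CPM at day 20, a ratio of 0.284 (0.229 to 0.352), and at 56.5 and 103 CPM at day 16, a ratio of 0.550. Ero1l, an oxidase of protein folding in the endoplasmic reticulum, was at 180 and 485 CPM at day 20, a ratio of 0.372 (0.346 to 0.399). Of 14 glycolysis and hypoxia genes at day 20, Hk2, Pfkp and Adm were lower and 0 higher, at ratios of 0.46 to 0.49 that no longer passed with TMM scaling. At day 16 Wnt genes were lower in 5 of 16 (Wnt4, Rspo3, Wif1, Axin2 and Lef1) and higher in 2 (Rspo2 and Sfrp2), and the hedgehog targets Ptch1 and Gli1 were lower. In thinned cells 2 of 13 Wnt genes were lower and 1 higher, and none of the 11 FGF and hedgehog genes passed. Stfa1, Cstdc5 and Nnat had the lowest ratios at day 20 among called genes at 50 CPM or more in either class. Of them, Cstdc5 was at 1.11 with a collagen gate of 2000 CPM, and Nnat at 2.32 with 1 Lum UMI, 1.13 with the 2000 CPM gate and 1.04 in cells low in neuron and hair cell genes.

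Cell cycle genes gave the longest list of higher calls, 14 of 18 at day 20 with a median log2 ratio of 1.51, and 10 of 18 at day 16 with a median of 1.04. In cells thinned to 3000 UMIs before the gate and the Lum rule, 2 of 17 were higher at day 20 and 0 of 13 at day 16. Ube2c, a ubiquitin-conjugating enzyme of mitosis, had a day 20 ratio of 3.56 at full depth and 1.04 in thinned cells. Pclaf, a PCNA-associated factor of replication, had ratios of 6.103 at day 20 and 9.94 at day 16 at full depth, and 1.45 and 0.434 in thinned cells. Over the alternatives Pclaf ran from 1.45 to 12.4 at day 20 and from 0.434 to 17.9 at day 16. Its highest ratios were in cells of 5000 UMIs or more. Ube2c ran from 1.04 to 25.2 at day 20, highest with a collagen gate of 2000 CPM. Lum-positive cells had the higher median depth in both libraries. The part of depth in these ratios was not tested. At equal depth Mki67 or Top2a was found in 4.34% (3.33 to 5.55) of Lum-positive and 2.02% (0.658 to 4.64) of Lum-negative cells at day 20, and in 6.06% and 7.95% at day 16, with overlapping intervals each time.

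**Figure D5:**
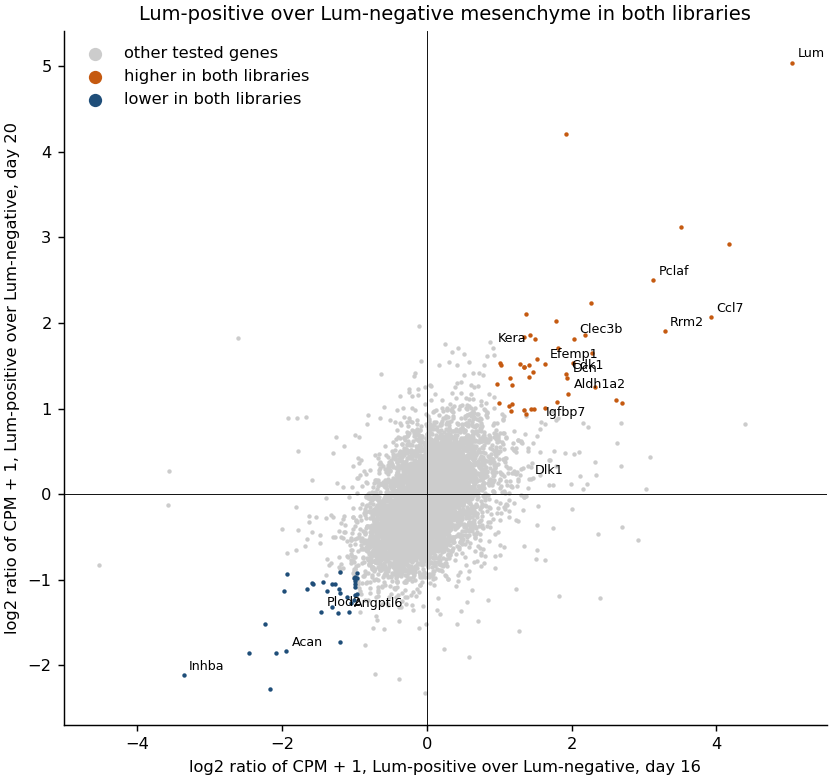
Log2 ratio of CPM plus 1, Lum-positive over Lum-negative cells, at day 20 (y axis) against day 16 (x axis) for the 8214 genes tested in both; the 47 genes higher in both are orange and the 35 lower in both are blue. Dcn, Clec3b and Efemp1 lie in the upper right and Inhba and Acan in the lower left.

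Members also varied among themselves. At day 20 the middle 50% of members ran from 847 to 2812 CPM of Lum around a median of 1641, and at day 16 from 742 to 2033 around 1244. Dlk1 was broader, from 263 to 4755 CPM around 1915 at day 20 and from 0 to 2714 around 533 at day 16. Cdkn1c, an imprinted cell cycle inhibitor, ran from 125 to 3318 CPM around 655 at day 20. The gene with the second highest ratio of variance to mean in thinned members at day 16, and the highest at day 20, was Ptgds, a prostaglandin D synthase. It was found in 4.55% of the thinned members at day 16, and 10 cells held 95.4% of its UMIs there and 99.5% at day 20. Dlk1, Cdkn1c and Meg3 were also among the 15 highest at day 16, with UMIs spread over more cells: 10 cells held 10.96%, 18.9% and 12.5%.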

How the data were processed

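Each of the 4 10x Genomics libraries was deposited as a matrix of unnormalised UMI counts, written by Cell Ranger 6.1.2 per the file headers. Per the submitters' processing notes the build was mm10 and the tools included Seurat 4.0.6 and Cell Ranger 6.1.0. The annotation is not given in the sources used here, and the labels speak both of cells and of nuclei. Barcodes with at least 1000 detected genes and at most 15% mitochondrial UMIs were kept (3496, 4553, 3544 and 3823), and doublets were marked but not removed in the values given. Counts were summed over the members of a library and divided by their total (8594799, 14741276, 829826 and 1495379 UMIs), which sets the intervals: exact Poisson for levels, conditional binomial for ratios and Clopper-Pearson for shares, computed with SciPy 1.17.1. Scaling by TMM used edgeR 4.0.16. The code was tested on simulated data.

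Named genes were the 6 markers, the 10 highest and 10 lowest called ratios for the days and for Lum at day 20, at 50 CPM or more and without mitochondrial and ribosomal protein genes, and from each of 35 lists up to 4 genes at 20 CPM or more with the largest change. Other genes named with values, (H19, Pou3f4, Pou4f3, Acan, Cdkn1c, Epyc and Ptgds), list genes named only as part of a count, and the ranking by variance over mean, were chosen after their values were seen. The members and lists were chosen with earlier results of these data known. Of 448 listed genes 1 was not matched, since 2 features share its symbol. The alternatives changed the Lum and collagen thresholds, mitochondrial and doublet filters, depth, scaling and gene filter; those on 5000 UMIs, cycling cells and other types' genes were added after seeing the data.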

Additional observations from a re-analysis of the deposited data

Results flagged for a closer look

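Espn and Nrn1 were called in opposite directions between Lum-positive and Lum-negative cells of the 2 larger libraries. The ratio of Espn, an actin-bundling gene of hair cell stereocilia, was 0.389 at day 20 and 6.604 at day 16, where 10 members held 93.4% of its UMIs. The ratio of Nrn1, a membrane-anchored neuritin, was 0.319 at day 20 and 2.50 at day 16. Its day 16 call was lost at 1.34 with 3 Lum UMIs, 1.41 with Lum at 200 CPM and 1.59 with a collagen gate of 500 CPM, and the ratio was 0.708 in thinned cells. Its day 20 call was lost at 0.592 in thinned cells. The difference between the libraries was not tested for either gene.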

How the results depend on the processing

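The share of the gate that was Lum-positive was 90.3% at day 16 and 89.4% at day 20 with 1 Lum UMI, 78.0% and 75.9% with 3, 81.1% and 79.95% with a collagen gate of 500 CPM, 87.9% and 86.7% in cells of 5000 UMIs or more, and 67.9%, 68.5%, 31.9% and 32.0% over the 4 libraries in thinned cells. With Lum at 200 CPM it was 83.9% at day 20 and 58.9% in GFP low. The counts of genes at day 20 over day 16 were 637 higher and 344 lower with TMM scaling, 602 and 1598 with no CPM minimum, and 1287 lower in thinned cells. For Lum-positive over Lum-negative at day 20 they were 270 and 112 with TMM scaling, 316 and 396 with no CPM minimum, 403 lower with a collagen gate of 2000 CPM and 334 lower as a mean of per-cell CPM. At day 16 they were 495 lower with the 2000 CPM gate, and 159 higher and 120 lower in thinned cells, of which 52 and 35 were shared with the full-depth calls. The cause was not tested.

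Among ratios called as reported, those that changed direction were Espn for day 20 over day 16 (1.87 with the 2000 CPM gate). For Lum-positive over Lum-negative at day 20 they were Nnat (2.32 with 1 Lum UMI, 1.13 with the 2000 CPM gate and 1.04 in cells low in other types' genes), Cstdc5, Rtn1 and Tubb3 (1.11, 1.0003 and 1.20 with the 2000 CPM gate), Fbxo2 (0.740 with the 500 CPM gate) and Hspa1a (0.793 in thinned cells). At day 16 they were Gdf15 (1.14 with 1 Lum UMI), Calml4 (0.717 with Lum at 200 CPM), Birc5 (0.811 as a mean of per-cell CPM) and, in thinned cells, Aldh1a2 (0.899), Fbxo2 (0.983), Nrn1 (0.708) and Pclaf (0.434). Of 324 gene ratios, 15 had no value without cycling cells and 9 in thinned cells. Ratios that were not called also crossed 1, such as Kera for day 20 over day 16 (0.846 to 1.18). No paired analysis was possible because each group has 1 library. The 31 and 67 members of day 21 limit the precision there, and a count of 0 allows 3.62 and 2.01 CPM.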
